A study of Mus musculus with 2 samples.

Results

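The 10 genes described here carry or read out bone morphogenetic protein (BMP) signalling: the ligand gene Bmp4, the antagonist gene Grem1, the receptor genes Bmpr1a and Bmpr2, the signal transducer genes Smad1 and Smad5, and the target genes Id1, Id2, Id3 and Id4. They were taken by symbol. Every probe set that the platform annotation assigns to exactly 1 of these symbols was used, which gave 25 of the 45101 probe sets, and 10 of 18194 measured genes. The arrays measured total RNA of a mouse embryonic stem (ES) cell line whose genotype is labelled Del1.3MbWBS, a deletion of 1.3 Mb in the region that corresponds to the human Williams-Beuren syndrome (WBS) segment. The data are 2 Affymetrix arrays, which the labels call biological replicates of this 1 line. The labels do not say how many copies of the region were lost, whether the replicates were separate cultures, or whether the line is a single clone. Per the labels' protocols, the cells grew on feeder cells with leukaemia inhibitory factor (LIF) and a serum replacement. No line without the deletion was analysed here, so no value below is an effect of the deletion.

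BMP ligands are secreted dimers that bring type I and type II receptor kinases together. The type I kinase phosphorylates Smad1, Smad5 and Smad9, which enter the nucleus with Smad4 and switch on target genes, the Id genes foremost among them. Id proteins have a helix-loop-helix domain but no DNA-binding region, so they hold E proteins and other helix-loop-helix factors away from DNA. In mouse ES cells kept with LIF, BMP signalling and Id proteins are known to help hold back neural differentiation.

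All 10 genes were above background on their brightest probe set, beside 68.4% of all genes. To set background, 39 olfactory receptor genes were used, whose transcripts are not expected in ES cells. A gene passed where its RMA log2 value exceeded the 95th percentile of these genes in the mean of both arrays, where that threshold was 5.59, and on each array, where it was 5.60 for replicate 1 and 5.58 for replicate 2. Of the 25 probe sets, 21 were above the same threshold, beside 61.8% of all probe sets with 1 gene symbol. Because probes bind with different affinity, levels are not compared between genes.

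Markers of ES cells and of fibroblasts were both present in the RNA. All 12 ES cell markers were above background, with means from 9.38 to 14.09; Pou5f1 was at 12.63 ± 0.020, Nanog at 12.11 ± 0.063, Sox2 at 12.11 ± 0.047 and Klf4 at 11.23 ± 0.044 (mean ± SD, n = 2, as throughout). Feeder layers are usually made of fibroblasts, and all 17 measured fibroblast markers passed the threshold too, with means from 8.81 to 14.87. The summed fibroblast signal was 17.05 on both arrays (log2 of the sum of linear values), and the summed ES cell signal was 15.66 on replicate 1 and 15.67 on replicate 2. The lists differ in length and in probe affinity, and the brightest genes weigh most in a sum. The sums are therefore not compared with each other and do not measure the share of either cell type. No marker of either list was below the threshold. Whether the BMP pathway transcripts came from ES cells or from feeder cells was not tested, and in such mixed RNA fewer cells of a type and less RNA per cell cannot be told apart.

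**Figure D1:**
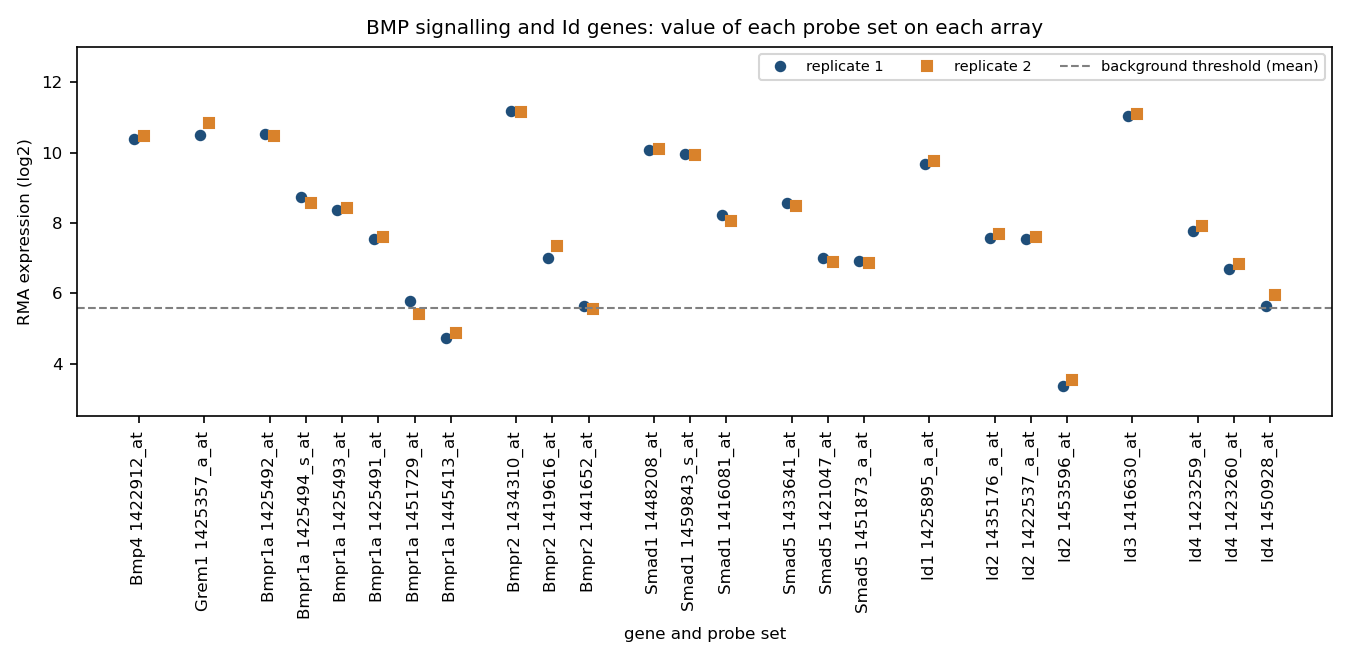
RMA log2 value (y axis) of each of the 25 probe sets (x axis, grouped by gene), with a circle for replicate 1 and a square for replicate 2; the dashed line is the background threshold of 5.59 for the mean. Each of the 10 genes has at least 1 probe set above the line, while Bmpr1a, Bmpr2 and Id2 also have probe sets at or below it.

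Bmp4, the ligand of the group, is a secreted factor that in mouse development also drives mesoderm and germ cell formation. Its single probe set read 10.40 on replicate 1 and 10.47 on replicate 2 (10.43 ± 0.053). The arrays differed by 0.075 log2 units, where the SD of the difference over the 1277 genes of like level (means from 10.19 to 11.13) was 0.062.

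Grem1 encodes gremlin, a secreted protein that binds BMP4 and keeps it from its receptors. Its single probe set read 10.50 on replicate 1 and 10.84 on replicate 2 (10.67 ± 0.24). The difference of 0.34 log2 units, or 1.26-fold, was 5.42 times the SD of genes of like level, and none of the other genes among those 1277 differed by more. Among the 2858 genes with a mean of at least 10, only Malat1 differed by more. Grem1 was thus the member on which the replicates matched least for its level. It did not reach 1.5-fold, which 0.0783% of the 12769 genes above the threshold on either array passed. The difference was 0.32 after loess and 0.34 after centring each array. The 17 fibroblast markers differed by at most 0.084 log2 units in either direction, with a median of 0.0018, and the 12 ES cell markers by at most 0.14. Whether the Grem1 difference came from the share of feeder cells was not tested. Grem1 has no other probe set, and this one is of the type marked as shared between transcripts (_a_at), so the difference has no check on a second probe set.

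The 250 bases before the annotated Grem1 start (RefSeq, GRCm38.p6, chr2:113758649-113758898, minus strand) are shown because Grem1 is the member on which the replicates matched least. They hold 2 strings linked to Smad binding, GGCGCC at position -78 and CAGAC at -219, counted from the start and printed in capitals; another string that was searched, GGAGCC, was not among these letters.
Grem1: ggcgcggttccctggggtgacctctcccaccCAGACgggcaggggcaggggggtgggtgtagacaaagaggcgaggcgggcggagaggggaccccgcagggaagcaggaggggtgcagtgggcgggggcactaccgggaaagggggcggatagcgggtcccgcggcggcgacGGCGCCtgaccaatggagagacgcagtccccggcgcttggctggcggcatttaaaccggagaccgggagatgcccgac

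Bmpr1a encodes a type I receptor kinase, also called ALK3. Its 6 probe sets spread widely, and 4 of them were above background. The brightest, 1425492_at, read 10.54 on replicate 1 and 10.48 on replicate 2 (10.51 ± 0.040). Further probe sets above the threshold had means of 8.65, 8.40 and 7.56. Probe set 1451729_at read 5.79 and 5.41, above the threshold on replicate 1 only, and 1445413_at was below it on both arrays (4.80 ± 0.11). Of the 6 probe sets, 5 were designed on the same GenBank record, and 4 of these were above background.

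Bmpr2 encodes the type II receptor, the kinase that activates the type I receptor. Probe set 1434310_at read 11.19 on replicate 1 and 11.16 on replicate 2 (11.17 ± 0.016). Probe set 1419616_at read 6.997 and 7.35, a difference of 0.35 log2 units, which was 2.51 times the SD of genes of like level. The brighter probe set of the same gene differed by -0.023, so the shift on 1419616_at was not shared. The remaining probe set, 1441652_at, lay at the threshold (5.60 ± 0.066), above it on replicate 1 and below it on replicate 2.

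Smad1 and Smad5 encode the closely related transcription factors that the type I receptor phosphorylates. All 3 probe sets of each were above background. For Smad1, 1448208_at read 10.06 and 10.11 (10.08 ± 0.033), 1459843_s_at 9.97 and 9.92 (9.94 ± 0.036), and 1416081_at 8.22 and 8.06 (8.14 ± 0.11). For Smad5, 1433641_at read 8.56 and 8.49 (8.53 ± 0.050), and the other two had means of 6.94 and 6.89. Of these 6 probe sets, 5 were lower on replicate 2, with a median difference of -0.065 log2 units, and each differed by less than 2 SDs of genes of like level. Over all probe sets with 1 gene symbol, 53.1% were higher on replicate 2. The 6 probe sets read only Smad1 and Smad5, so they are not independent, and their direction was not tested.

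The 4 Id genes encode the inhibitors of helix-loop-helix factors, and all were above background. Id1, on its single probe set, read 9.68 on replicate 1 and 9.75 on replicate 2 (9.71 ± 0.054). Id3, also on a single probe set, read 11.05 and 11.10 (11.07 ± 0.032). For both genes the arrays differed by less than 1.5 SDs of genes of like level.

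Id2 was read by 3 probe sets. Those marked as shared between transcripts gave nearly the same level, 7.58 and 7.69 for 1435176_a_at (7.64 ± 0.083) and 7.55 and 7.61 for 1422537_a_at (7.58 ± 0.042). The third, 1453596_at, designed on another record, read 3.37 and 3.55 and was below background on both arrays. Id2 was thus above background only on the shared probe sets, and with unshared probe sets alone 7 of the 8 members still measured were above background, the exception being Id2.

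Id4 was above background on all 3 of its probe sets, which were designed on 1 GenBank record. They read 7.76 and 7.91 for 1423259_at (7.83 ± 0.10), 6.70 and 6.83 for 1423260_at (6.76 ± 0.090) and 5.63 and 5.95 for 1450928_at (5.79 ± 0.23). The faintest of these passed the threshold on replicate 1 by a narrow margin.

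All 8 Id probe sets were higher on replicate 2, by 0.045 to 0.32 log2 units with a median of 0.12. Of all probe sets with 1 gene symbol, 53.1% were higher on replicate 2. The count stayed 8 of 8 after loess, where the share of all probe sets was 52.0%, and after centring, where it was 53.7%. The shift used in centring was only -0.0014 log2 units, and the smallest Id difference was still 0.030 after loess. Neither correction was large enough to turn a sign, so these counts add nothing to the first. The 8 include 1453596_at of Id2, which was below background on both arrays. The Id differences were small: the largest, on 1450928_at of Id4, was 1.64 times the SD of genes of like level. Probe sets of 1 gene share their RNA and partly their target, so the 8 are not independent, and with 1 array on each side the direction was not tested.

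**Figure D2:**
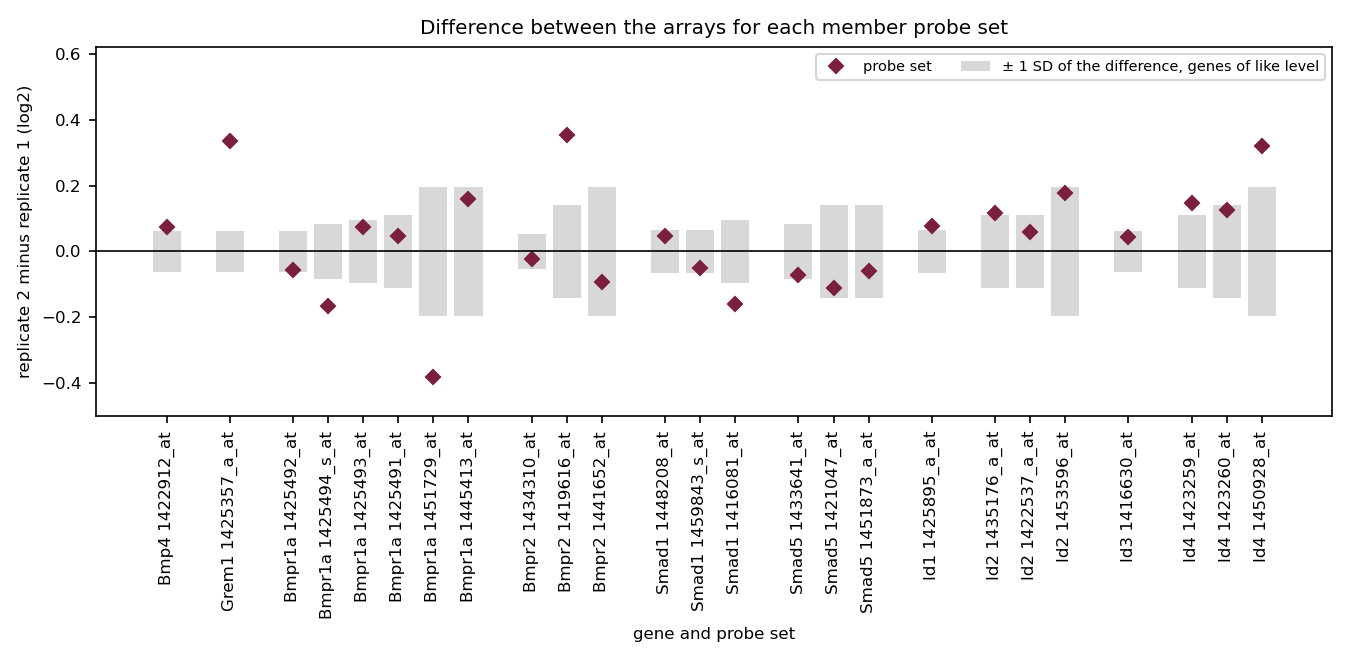
Replicate 2 minus replicate 1 in log2 units (y axis) for each of the 25 member probe sets (x axis, diamonds); the grey bars span 1 SD of the same difference on either side of 0 over genes of like level, and probe sets below the lowest level group are given its SD. Grem1 (0.34) stands farthest outside its bar, and all 8 Id diamonds lie above 0.

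Over the 10 genes, each on its brightest probe set, the median difference between the arrays was 0.061 log2 units and its SD was 0.118, beside a median of 0.015 and an SD of 0.114 over the 12769 genes that passed on replicate 1, replicate 2 or both. Without Grem1 the SD was 0.075 and the median 0.047. None of the 10 genes passed 1.5-fold, beside 0.0783% of the 12769 genes. None of the 25 probe sets did so either, beside 0.157% of all probe sets with 1 gene symbol, bright or dim.

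**Figure D3:**
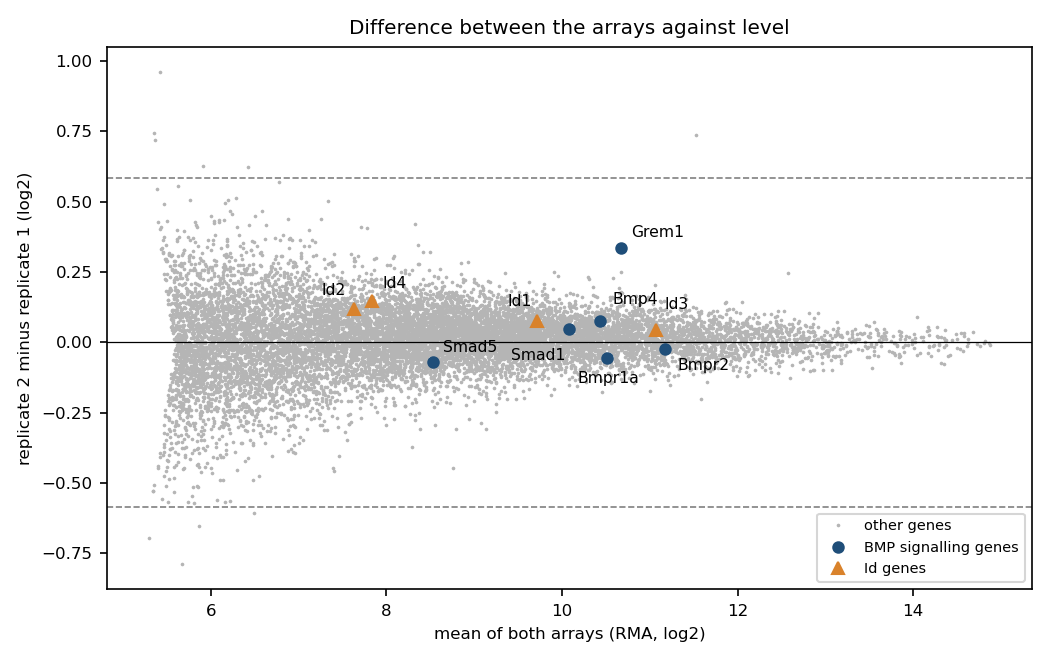
Replicate 2 minus replicate 1 (y axis, log2 units) against the mean of both arrays (x axis, RMA log2) for 12769 genes, with the BMP signalling genes as circles and the Id genes as triangles; dashed lines mark 1.5-fold. Grem1 lies at 0.34, outside the band of genes at its level, and the other 9 members lie within 0.15 of 0.

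The sequences before the annotated starts of Id2, Id3 and Id4 are shown because the Id family is the best known output of the pathway. They are the 250 bases before the start from RefSeq (GRCm38.p6), at chr12:25096093-25096342 on the minus strand for Id2, chr4:136143572-136143821 on the plus strand for Id3 and chr13:48260866-48261115 on the plus strand for Id4. Capitals mark GGCGCC and, on either strand, CAGAC. Control elements farther from the start lie outside these stretches. Whether the printed bases or the capitals take part in the response to BMP was not tested.
Id2: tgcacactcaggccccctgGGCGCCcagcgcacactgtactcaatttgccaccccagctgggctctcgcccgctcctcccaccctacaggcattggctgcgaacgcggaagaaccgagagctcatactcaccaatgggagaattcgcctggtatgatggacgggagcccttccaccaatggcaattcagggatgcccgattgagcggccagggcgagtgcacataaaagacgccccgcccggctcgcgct
Id3: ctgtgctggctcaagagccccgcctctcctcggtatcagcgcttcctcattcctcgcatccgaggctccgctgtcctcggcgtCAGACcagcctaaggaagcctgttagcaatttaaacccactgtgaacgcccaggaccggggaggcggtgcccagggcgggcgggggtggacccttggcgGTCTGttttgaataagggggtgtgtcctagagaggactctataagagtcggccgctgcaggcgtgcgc
Id4: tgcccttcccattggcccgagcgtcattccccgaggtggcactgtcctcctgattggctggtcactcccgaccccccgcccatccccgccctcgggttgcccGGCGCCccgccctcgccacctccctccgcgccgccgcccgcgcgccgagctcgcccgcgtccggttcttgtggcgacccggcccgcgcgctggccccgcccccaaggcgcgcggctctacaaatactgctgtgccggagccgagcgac

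Windows of 9 members were in the table, Smad5 with 3 of them, and Id1 was not searched; none of the windows lay on chromosome 5, which holds the mouse WBS segment. GGCGCC, a palindrome known from the BMP-responsive enhancer of Id1, was found in 6 of the 9 (Grem1, Bmpr1a, Bmpr2, Smad5, Id2 and Id4) and in 10.8% of 27025 genes. The members' windows were rich in G and C, with a median of 64.0% against 52.4% over all windows. Among the 8115 genes with a window at least as rich as the lowest member window (60.0%), 27.5% held GGCGCC. The related string GGAGCC, which like the others was searched on both strands, was found in 5 of 9 members. These were Bmp4, Smad5, Id2, Id3 and Id4. GGAGCC was found in 28.6% of all genes and in 48.5% of the 8115 GC-rich genes. CAGAC was found in 3 of 9 (Grem1, Smad5 and Id3), in 45.8% of all genes and in 41.0% of the GC-rich genes. The E box CANNTG, to which the helix-loop-helix partners of Id proteins bind, was found in 3 of 9 (Bmp4, Smad5 and Id2), in 69.3% of all genes and in 54.0% of the GC-rich genes. No match in a member window overlapped a match of another string, and a match describes the letters only.

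Of 56 other measured genes of the pathway, 41 were above background, 73.2% of them, beside 68.4% of all genes. Among the other ligand genes, 6 of 11 were above background, and most of these lay near the threshold: Bmp2, a ligand close to Bmp4, was at 6.10 ± 0.16, Bmp7 at 5.92 ± 0.021, Bmp8a at 5.98 ± 0.098, Bmp10 at 5.62 ± 0.0069 and Gdf2 at 6.56 ± 0.071. Bmp7 was above background on 1 of its 3 probe sets. Gdf3, a gene of the ligand list that is typical of pluripotent cells, was at 9.88 ± 0.046. Whether its product acts on BMP receptors in these cells was not tested. Bmp5, Bmp6, Bmp8b, Bmp15 and Gdf5 were not above background. With the vomeronasal and taste receptor genes as the reference, whose threshold was 6.08, only Gdf2 and Gdf3 passed.

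Secreted antagonists other than Grem1 were above background in 7 of 13 genes. Follistatin, encoded by Fst, which binds activins and several BMPs, was at 10.65 ± 0.067, Twsg1 at 9.71 ± 0.0053, Nbl1 at 9.02 ± 0.073, Bmper at 8.32 ± 0.028 and Fstl3 at 8.14 ± 0.022. Chrd, which encodes chordin, was at 6.26 ± 0.036 and Chrdl2 at 5.72 ± 0.13. Nog, which encodes noggin, was not above background (4.10 ± 0.092), nor were Chrdl1, Sostdc1, Sost, Cer1 and Dand5.

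Receptors and co-receptors were above background in 9 of 11 genes. The type I receptor genes Acvr1 and Bmpr1b were at 9.59 ± 0.074 and 7.70 ± 0.056, and the type II receptor genes Acvr2a and Acvr2b at 8.42 ± 0.071 and 8.66 ± 0.0066. Of 3 probe sets each, Acvr1 was above background on 3, Acvr2b on 2 and Bmpr1b on 1. Bambi, a decoy receptor that is itself induced by BMP, was at 8.66 ± 0.047. Acvrl1, a type I receptor gene known from endothelium, lay just under the threshold (5.57 ± 0.011), and Hjv, a co-receptor gene of iron metabolism, was at 5.44 ± 0.13.

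Among the Smads and their regulators 10 of 11 genes were above background. Smad4, the common partner, was at 11.55 ± 0.025, and the inhibitory Smad7 and Smad6 were at 10.03 ± 0.026 and 6.67 ± 0.13. Smad9, the third BMP-activated Smad gene beside Smad1 and Smad5, was the exception at 5.44 ± 0.042 on its single probe set. Its call rests on the threshold: with the median of a gene's probe sets, or unshared probe sets alone, the threshold was 5.28 and all 11 genes passed. The ubiquitin ligase genes Smurf1 and Smurf2, whose products mark Smads for degradation, were at 8.38 ± 0.0080 and 9.84 ± 0.040.

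Other known BMP target genes were above background in 6 of 7 cases: Dusp9, a phosphatase gene that BMP induces in ES cells to restrain ERK, was at 7.85 ± 0.070, Gata2 at 7.63 ± 0.030, Msx2 at 7.54 ± 0.077, Msx1 at 6.89 ± 0.069, Atoh8 at 6.39 ± 0.0059 and Hey1 at 6.03 ± 0.21. Dlx5 was not (4.62 ± 0.21). Msx2 was above background on 1 of its 2 probe sets. The median difference between the arrays over these 7 genes was -0.099 log2 units, lower on replicate 2. All 3 E protein genes, whose products Id proteins bind, were above background, with Tcf3 at 9.65 ± 0.015, Tcf4 at 10.63 ± 0.018 and Tcf12 at 11.05 ± 0.025.

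**Figure D4:**
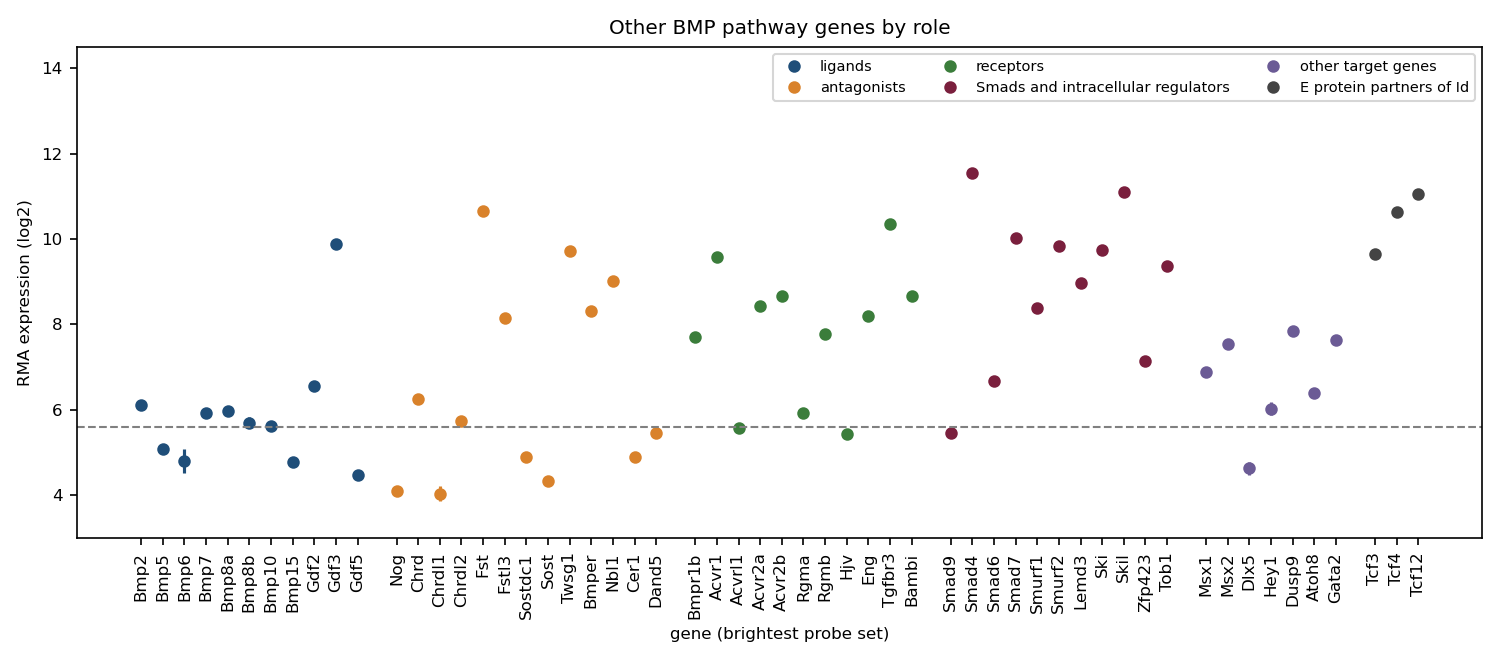
Mean RMA log2 value (y axis) of the brightest probe set of 56 other BMP pathway genes (x axis, coloured by role); vertical lines join the values of both arrays, and the dashed line is the background threshold of 5.59. Among the genes listed as ligands only Gdf3 (9.88) stands far above the line, while Smad4, Skil and the E protein genes lie near or above 10.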

How the data were processed

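Each probe set has a log2 value per array, which the authors made with RMA (background subtraction, quantile normalization and probe set summary), per the submitters' processing notes. Its version is not stated in these sources, nor are the arrays it was run over; quantile normalization hides a shift shared by most genes. The precision is limited by the number of arrays, 2, and the spread between them may be technical. Columns that were not used numbered 0. Of 45101 probe sets, 34958 had 1 gene symbol in the platform annotation, 932 several and 9211 none; 34754 matched the reference gene table by identifier. The brightest probe set stood for a gene. Genes of like level are the 10 equal groups by mean of the 12769 genes that passed on either array. No test between conditions was possible with 1 group, so no p-value is given. The calls were checked on simulated data. The simulated silent genes took levels of the olfactory receptor genes, and the simulated expressed genes lay well above the background threshold. Their separation was thus largely set in advance, and calls of weakly expressed genes near the threshold were not checked. The members, the role and marker lists and the sequence motifs were chosen with earlier results of these data known. All members, any gene of the role lists and the first 4 ES cell markers could be named; Malat1 was named after its value was seen. Of 61 listed pathway genes 5, and of 18 fibroblast markers 1, had no probe set of their own. Alternatives were another reference (37 vomeronasal and taste receptor genes), the 99th percentile, the median of all probe sets, unshared probe sets (no _a_at, _s_at or _x_at), each array alone, loess (fraction 0.3), centring and no filter on dim genes. Python 3.11.15, pandas 2.3.3 and statsmodels 0.14.6 were used.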

Additional observations from a re-analysis of the deposited data

How the results depend on the processing

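Of 59 alternative values for the main counts and differences, 58 stayed within the spread or within 1.5 times the reported value. The exception was the count of other ligand genes above background, 6 of 11, which became 2 with the vomeronasal and taste receptor genes. That reference raises the threshold from 5.59 to 6.08. Some alternatives could not move: leaving out the filter on dim genes kept the members' values as they were, and centring cannot change an SD. A call needed the value on each array to pass, so a count with either array alone could only stay or rise. All 10 members were thus bound to pass with either array alone. The median difference counted as unchanged if it moved by no more than the members' SD of 0.118, which is larger than the median of 0.061. All 10 members were above background with that reference, at the 99th percentile, with each gene's median probe set and with either array alone; with unshared probe sets, which leave out Grem1 and Id1, 7 of 8 were. The count of member probe sets, 21 of 25, ranged from 21 to 23 with 1 array alone and was 20 with the other reference. With the median over a gene's probe sets, the level of 5 members moved by more than the SD between the arrays: Bmpr1a to 7.98, Bmpr2 to 7.17, Smad1 to 9.94, Smad5 to 6.94 and Id4 to 6.76. With unshared probe sets Id2 fell to 3.46. No paired analysis was possible because there is only 1 group of arrays. Near the threshold, signal over background cannot separate silent from weakly expressed genes.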
